A study of Mus musculus with 357 samples.

Results

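Ccne1, CDK2, Cdt1 and GMNN are the 4 of 96 gene assays on a single-cell panel that read the machinery of S-phase entry and replication licensing, and they were taken by their assay names. They were followed across all 357 single hematopoietic stem cells (HSCs) of the study, by chase time and by plate. The assay names were matched without regard to case to the mouse genes Ccne1 on chromosome 7, Cdk2 on chromosome 10, Cdt1 on chromosome 8 and Gmnn on chromosome 13 (RefSeq, GRCm38.p6). CDK2 and GMNN are written here as the assays are named.

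The cells were bone marrow HSCs, sorted as Lin-Sca1+c-kit+CD48-CD150+. Every cell of both groups came from Col1a1-tetO-H2B-mCherry mice, which carry an inducible fluorescent histone that division dilutes, and the groups differed in chase time, 2 or 5 weeks after labelling. Each time was read on 2 plates, with 90 and 93 cells at 2 weeks and 91 and 83 cells at 5 weeks, and each cell gave 1 threshold cycle (Ct) per assay. The labels used here name no driver of the transgene, no unlabelled mice and no animal numbers or ages, and no division count of a cell was used. The study related gene expression to the division history of HSCs, and the comparison made here asks how the 4 genes differed between the chase times.

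A cell that is about to copy its genome first loads the replicative helicase onto its origins, a step called licensing, and may fire these origins only once. Cdt1 is a loading factor for the helicase, and geminin, the product of Gmnn, binds Cdt1 and blocks further loading after S phase has begun. Cyclin E1, the product of Ccne1, activates the kinase CDK2 late in G1, and active CDK2 drives entry into S phase. Most HSCs of adult marrow are out of cycle at any moment.

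The promoters are shown because many genes of S-phase entry are textbook targets of E2F factors, and because the detection of these genes in the same cells is described further on. RefSeq promoter windows matched 3 of the 4 genes, Ccne1, Cdk2 and Cdt1, and Gmnn had no entry. Each line holds the 250 bases before the annotated start, 5′ to 3′ on the strand of the gene, in GRCm38.p6. The capitals mark a match to the E2F letters searched, which were TTTCCCGC, TTTCGCGC, TTTGCCGC and TTTGGCGC on either strand.
Ccne1, chr7:38107491-38107740, minus strand: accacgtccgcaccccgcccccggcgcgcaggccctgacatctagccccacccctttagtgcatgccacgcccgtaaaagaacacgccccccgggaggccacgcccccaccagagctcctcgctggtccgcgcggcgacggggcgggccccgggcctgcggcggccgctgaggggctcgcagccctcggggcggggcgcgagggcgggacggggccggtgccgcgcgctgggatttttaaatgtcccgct
Cdk2, chr10:128705052-128705301, minus strand: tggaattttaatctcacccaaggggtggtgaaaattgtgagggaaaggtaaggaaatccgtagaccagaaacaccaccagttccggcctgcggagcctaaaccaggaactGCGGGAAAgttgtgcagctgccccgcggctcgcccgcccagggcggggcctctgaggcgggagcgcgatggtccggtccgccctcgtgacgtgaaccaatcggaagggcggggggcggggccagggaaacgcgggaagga
Cdt1, chr8:122567765-122568014, plus strand: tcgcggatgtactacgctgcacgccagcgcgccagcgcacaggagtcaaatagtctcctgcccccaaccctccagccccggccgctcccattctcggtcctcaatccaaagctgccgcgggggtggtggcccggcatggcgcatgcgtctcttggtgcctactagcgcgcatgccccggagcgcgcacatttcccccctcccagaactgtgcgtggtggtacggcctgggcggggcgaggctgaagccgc

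The Cdk2 window held 1 E2F match, GCGGGAAA, which is TTTCCCGC read on the opposite strand, with its first base at position -140 from the start. The Ccne1 and Cdt1 windows held 0 such matches upstream. A match in Cdt1 lay just downstream of the start, with its first base at position 33, at chr8:122568039-122568062 with its neighbouring bases:
Cdt1 downstream site: actaccttTTTGGCGCcatggcgc

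These letters stood in 744 of 32851 RefSeq promoter windows of 300 bases (2.26%) and in 611 (1.86%) of the upstream parts. Of the 68 panel assays with a promoter entry, 7 (10.3%) had them in at least 1 window of 300 bases, a count of genes and not of windows. The GC box GGGCGG, a binding site of the Sp factors, was found on either strand at 4 places upstream of Ccne1, at 5 upstream of Cdk2 and at 1 upstream of Cdt1. It stood in 32.7% of all upstream parts and in 35.7% of all windows of 300 bases. Of the 68 panel assays, 69.1% had it in at least 1 window of 300 bases. The GC content of the upstream parts was 76% for Ccne1, 63.2% for Cdk2 and 68.4% for Cdt1. A match describes the letters in a window and does not show binding.

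A gene counted as detected in a cell when its product came at Ct 25 or earlier, and 1 cycle less stands for roughly a doubling of template. Since no animal is named in the labels, a chase time counts as 1 sample, and no test between the times was made. The 2 plates of a time may be technical repeats. Plates were called apart for an assay when the 5-week plates were both higher, or both lower, than either 2-week plate. Each plate held 1 chase time, so chase time and plate or chip cannot be told apart. Intervals on shares are exact Clopper-Pearson 95% intervals, and those on differences in share are Newcombe 95% intervals over the pooled cells of a time. Both cover counting error only and are no test between the times.

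The sorted phenotype was checked in the transcripts. Kit had a product in 98.9 and 99.4% of cells at 2 and 5 weeks, Cd48 in 2 and 3 cells, the B cell gene Ebf1 in 0 cells and the T cell gene Tcf7 in 2 and 2 cells. The myeloid receptor gene Csf1r was detected in 27 and 4 cells, and 77.4% of its products came after Ct 18. The genes of the other sorted surface markers were read in fewer cells at 5 weeks, with plates apart: Ly6a, which encodes Sca1, in 91.3 and 73% and Slamf1, which encodes CD150, in 72.1 and 55.7%. All 5 measured erythroid and megakaryocyte markers had higher shares with plates apart at 5 weeks, as had 42.7% of all 96 assays. They were Klf1 (4.92 and 7.47%), Epor (21.3 and 29.9%), Gata1 (21 and 35 cells), Itga2b (39.9 and 51.1%) and vwf (34.4 and 51.1%). The nearest Epor plates were 0.57 points apart, and 86.4% of the Itga2b products came after Ct 18. The part of these shifts in the results on the 4 genes was not tested. The mean Ct of the 14 reference assays, taken here as the measure of template, also differed between the groups. It was 13.4 ± 0.53 (SD over cells) at 2 weeks and 13 ± 0.65 at 5 weeks. Relative to that mean the reference assays moved both ways with plates apart, from CDK4 (-0.69 log2 units) to Nfe2 (0.95). Template cannot be told apart from plate or chip between the times. Of the 92 other assays a cell had 54.1 ± 4.76 and 51.9 ± 4.70 (SD over the cells of a plate) at 2 weeks, and 58.1 ± 4.84 and 56.1 ± 5.58 at 5 weeks. The 4 genes all had earlier or more frequent products in cells with an earlier reference Ct. The rank correlations between the Ct of a gene and the reference Ct, plate by plate, were 0.17 to 0.31 for Ccne1 and 0.32 to 0.46 for CDK2. They were 0.32 to 0.51 for Cdt1 and 0.27 to 0.49 for GMNN (83 to 93 cells a plate).

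CDK2 was the member detected in the most cells and the only member whose plates were apart in detection share. It was detected in 48 of 90 cells (53.3%) and 52 of 93 cells (55.9%) on the 2-week plates. On the 5-week plates it was detected in 65 of 91 cells (71.4%) and 63 of 83 cells (75.9%). Both 5-week plates therefore lay above both 2-week plates, by 15.5 to 22.6 percentage points. Over each time the share was 54.6% (47.1 to 62%) at 2 weeks and 73.6% (66.4 to 80.0%) at 5 weeks, a difference of 18.9 points (Newcombe 95% interval 8.98 to 28.3). The difference ranked 10 of 96 assays from the largest gain.

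That 1 of the 4 members rose in share is read against 42.7% of all 96 assays, which had higher shares with plates apart at 5 weeks. The 96 include assays such as Actb, Gapdh and Lmo2, at 100% of cells on each plate, whose shares had no room to rise. The share among assays detected about as often as CDK2 is not given here. A lower share with plates apart was found for 0 of the 4 members and for 7.29% of the assays. The median difference over the 96 assays was 2.85 points. In a logistic fit with the cell's mean reference Ct as covariate, the CDK2 difference was 7.63 points, below the lower end of its interval, and with the number of other detected assays it was 11.7 points. The part of template in the CDK2 difference was not tested beyond these fits.

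**Figure D1:**
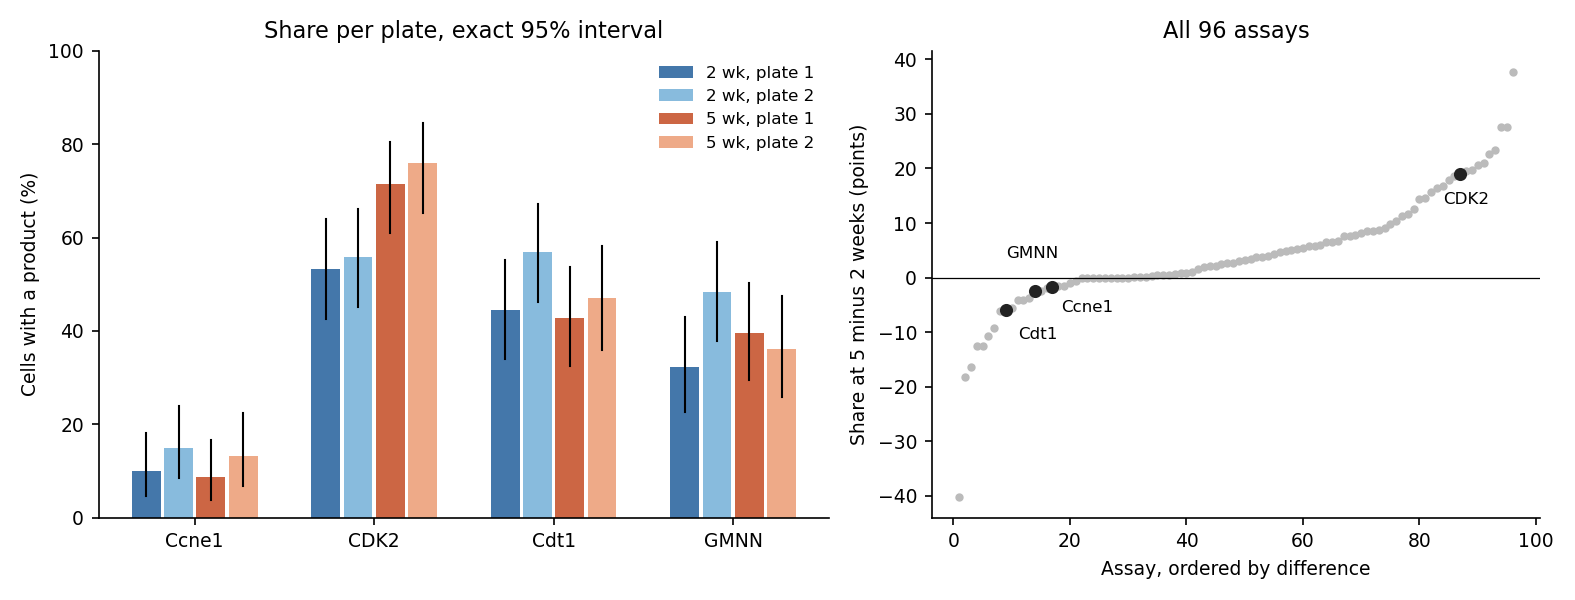
Left, percent of cells with a product at Ct 25 or earlier for each gene on each plate, as bars with exact 95% intervals; right, the difference in share (5 minus 2 weeks, percentage points) of all 96 assays in order of size, with the 4 genes in black. CDK2 was at 53.3 and 55.9% on the 2-week plates and 71.4 and 75.9% on the 5-week plates, while the other 3 genes had overlapping plates and differences below 0.

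In cells with a product, the median raw Ct of CDK2 was earlier on both 5-week plates than on either 2-week plate. The lowest, median and highest Ct were 13.6, 16.7 and 18.1 on 2-week plate 1 and 14.1, 16.1 and 21.8 on 2-week plate 2. They were 13.3, 15.8 and 17.5 on 5-week plate 1 and 13.5, 16 and 23.2 on 5-week plate 2. Only 6 of the 228 CDK2 products (2.63%) came after Ct 18, so its share rests almost wholly on early products, and at a limit of Ct 18 its difference was 17.7 points. The level, in log2 units, is the distance from the Ct of the gene up to the mean Ct of the 14 reference assays in the same cell. It was -3.00 ± 0.96 (SD, 48 cells) and -2.82 ± 1.14 (52 cells) at 2 weeks and -2.98 ± 1.01 (65 cells) and -3.25 ± 1.26 (63 cells) at 5 weeks. These plates overlapped (they were apart without 2-week plate 1, at -0.30, or 5-week plate 1, at -0.35), and the difference of -0.21 lay near the median of -0.13 over the 80 assays that had 10 or more detecting cells on each plate. CDK2 was thus detected in more cells at 5 weeks, without a separate level in the cells that had it.

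Ccne1, which encodes the activating cyclin of CDK2, was the sparsest of the 4. It was detected in 9 of 90 cells (10.0%) and 14 of 93 cells (15.1%) at 2 weeks. At 5 weeks the counts were 8 of 91 cells (8.79%) and 11 of 83 cells (13.3%). The plates overlapped: plate 2 of each time was higher than plate 1 of either. Over each time it was found in 12.6% (8.14 to 18.3%) and 10.9% (6.70 to 16.5%) of cells, a difference of -1.65 points with an interval of -8.41 to 5.18. This interval holds both a fall and a rise of several points. The logistic fit with reference Ct gave -7.88 points, and with the number of other assays -7.34 points. Without 2-week plate 1 the difference was -4.13 and without 5-week plate 2 it was -3.78, both with the remaining plates apart, and without 2-week plate 2 or 5-week plate 1 it was 0.92 and 0.68.

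Most of the Ccne1 products that did appear came at Ct 18 or earlier. The lowest, median and highest Ct were 15.3, 16.2 and 20.0 on 2-week plate 1, 15.8, 17.1 and 18.9 on 2-week plate 2, 15.4, 16.7 and 18.2 on 5-week plate 1 and 15.5, 16.9 and 17.8 on 5-week plate 2. Of the 42 products 38 came at Ct 18 or earlier. The rest, 9.52%, came later, against 2.63% for CDK2, 6.43% for GMNN and 70.2% for Cdt1. Mean levels were -3.54 ± 1.23 (SD, 9 cells), -3.98 ± 0.64 (14 cells), -4.27 ± 0.74 (8 cells) and -4.16 ± 0.89 (11 cells) on the same plates, and no comparison of levels was made because 2 plates had fewer than 10 detecting cells. Ccne1 was thus read in few cells, from Ct 15.3 to 20.0.

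Cdt1, the loading factor, was detected in 40 of 90 cells (44.4%) and 53 of 93 cells (57%) at 2 weeks and in 39 of 91 cells (42.9%) and 39 of 83 cells (47%) at 5 weeks. The plates overlapped, since 5-week plate 2 lay above 2-week plate 1. Over each time the share was 50.8% (43.3 to 58.3%) and 44.8% (37.3 to 52.5%), a difference of -5.99 points with an interval of -16.1 to 4.34. It was -12.2 without 2-week plate 1 and -7.96 without 5-week plate 2, with the remaining plates apart, -3.83 without 5-week plate 1 and 0.38 without 2-week plate 2. At equal reference Ct in the logistic fit the difference was -20.5 points, outside that interval, and at an equal number of other detected assays it was -13.9 points. The fitted share of cells with Cdt1 was lower at 5 weeks with template as a covariate, while the plain shares had overlapping plates. The fit pooled the cells of a time without a plate term, and its value carries no interval. It cannot part template from plate or chip.

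Cdt1 products came late. The lowest, median and highest Ct were 16.3, 19.7 and 22.8 on 2-week plate 1 and 15.9, 18.8 and 23.9 on 2-week plate 2. They were 14.2, 18.7 and 21.2 on 5-week plate 1 and 16.1, 19.2 and 24.3 on 5-week plate 2. Of its products 70.2% came after Ct 18 and 33.3% after Ct 20. EvaGreen binds any double-stranded DNA, so late signal need not come from the intended amplicon, and melting data were not analysed here. Among products at Ct 18 or earlier the shares of the times differed by 0.16 points. The level was -6.14 ± 1.44 (SD, 40 cells), -5.81 ± 1.74 (53 cells), -5.86 ± 1.63 (39 cells) and -6.29 ± 1.73 (39 cells) on the plates in the same order, overlapping, with a difference of -0.12 (-0.26 without 2-week plate 1 and -0.34 without 5-week plate 1, with the remaining plates apart).

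GMNN, which encodes the inhibitor of Cdt1, was detected in 29 of 90 cells (32.2%) and 45 of 93 cells (48.4%) at 2 weeks. At 5 weeks it was detected in 36 of 91 cells (39.6%) and 30 of 83 cells (36.1%). Both 5-week plates lay between the 2-week plates. Over each time the share was 40.4% (33.3 to 47.9%) and 37.9% (30.7 to 45.6%), a difference of -2.51 points with an interval of -12.5 to 7.57. The direction rested on which 2-week plate was kept: without 2-week plate 1 it was -10.5 points with plates apart, and without 2-week plate 2 it was 5.71 points with plates apart the other way. With the reference Ct as a covariate it was -13.8 points, and with the number of other assays -12.6 points.

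Among cells with a GMNN product the level was lower at 5 weeks. The lowest, median and highest Ct were 12.3, 15.8 and 18.7 on 2-week plate 1 and 11.9, 15.1 and 21.2 on 2-week plate 2. They were 11.8, 16 and 23.5 on 5-week plate 1 and 13.2, 15.5 and 24.4 on 5-week plate 2. The raw Ct of the plates thus overlapped widely from cell to cell, and the separation is one of plate means. The level was -2.18 ± 1.42 (SD, 29 cells) and -1.87 ± 1.63 (45 cells) on the 2-week plates and -3.28 ± 2.03 (36 cells) and -3.04 ± 2.14 (30 cells) on the 5-week plates, apart by 0.86 to 1.41 log2 units. The difference of the times was -1.18, smaller than the SD over the cells of either time (1.55 and 2.06).

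GMNN was the 1 of 3 members with a compared level that was lower with plates apart, against 43.8% of the 80 assays, and 0 of 3 were higher, against 30.0%. The centring sets these shares: without any centring 61.2% of the assays were higher and 7.5% lower, with Actb and Gapdh 56.2 and 11.2%, and on the scale of the plate median 42.5 and 17.5%. The median over the 80 assays moved with it, from -0.13 to 0.37, 0.25 and 0.10. GMNN kept its direction and separate plates on each scale, at -0.73 without centring, -0.76 with Actb and Gapdh and -0.95 on the plate median's scale, and ranked 8 of 80 from the largest loss on all 4. Relative to the median assay of its scale it lay at -1.05, -1.10, -1.01 and -1.05, while CDK2 lay within -0.15 to -0.08 and Cdt1 within -0.02 to 0.03.

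A tail of late GMNN products made part of this difference. Products after Ct 18 made up 3 of 74 at 2 weeks and 6 of 66 at 5 weeks, and without them the difference was -0.92 with plates apart. At the other end, products before Ct 15 were 39.2% of the GMNN products at 2 weeks and 27.3% at 5 weeks. By plate these shares were 24.1 and 48.9%, then 22.2 and 33.3%. The difference between medians over cells was -0.76. The late tail thus went the same way as the mean, while the share of early products overlapped between the plates.

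**Figure D2:**
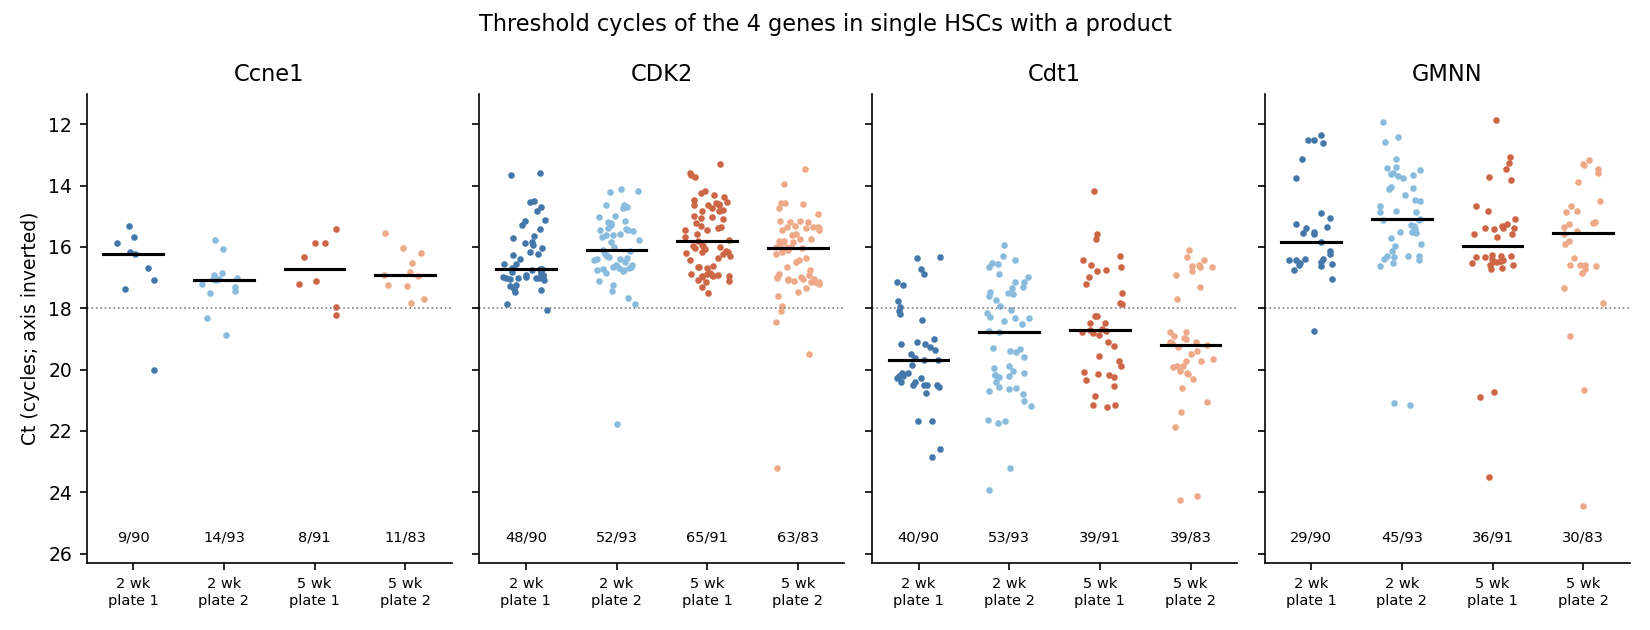
Ct of every product of the 4 genes (1 point a cell, vertical axis inverted so that more template is higher) on the 4 plates, with the median as a bar, the Ct 18 line dotted and the number of detecting cells over all cells below each plate. Cdt1 medians lay at 18.7 to 19.7, later than those of the other 3 genes, and GMNN spread from Ct 11.8 to 24.4.

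**Figure D3:**
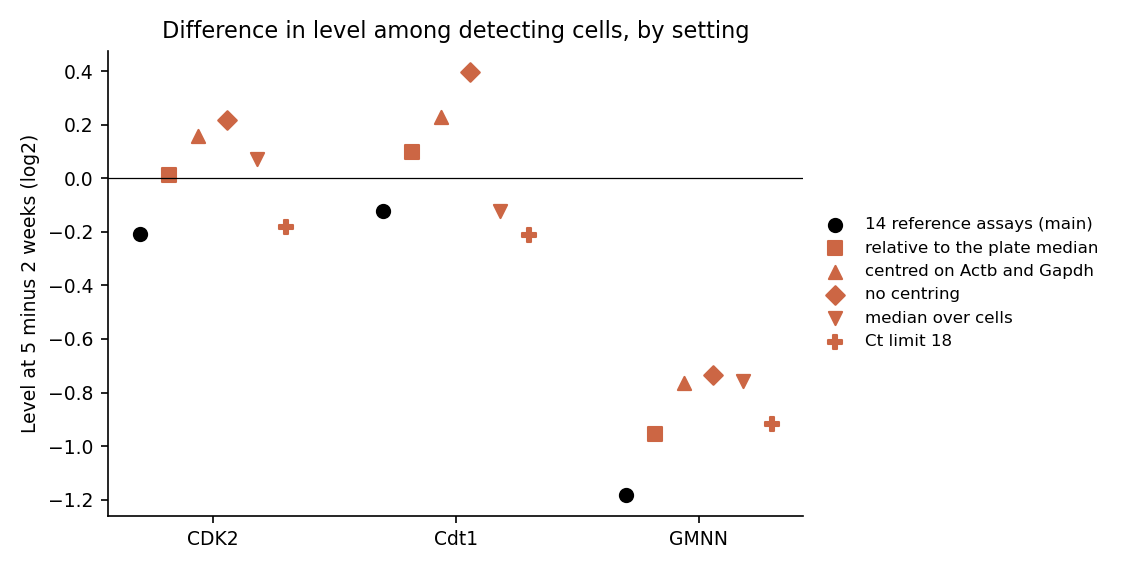
Difference in mean level among detecting cells (5 minus 2 weeks, log2 units) for the 3 genes with 10 or more detecting cells per plate, under 6 settings. GMNN was below 0 under each of them, from -1.18 to -0.73, while CDK2 and Cdt1 changed sign with the centring.

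The Ct of 2 genes in the same cell can be compared without any reference assay. CDK2 came 0.84 ± 1.34 cycles (SD, 48 cells) after GMNN at 2 weeks, and at 5 weeks the mean gap was -0.40 ± 2.18 cycles (56 cells). The medians over cells were 0.80 and 0.16, so in the median cell CDK2 still came after GMNN at 5 weeks, and the lowest gap there was -7.79. The gap between Cdt1 and GMNN narrowed from 3.59 ± 1.88 cycles (51 cells) to 2.35 ± 1.47 cycles (35 cells). Both gaps fell by 1.24 cycles with plates apart, by 0.86 to 1.56 and by 0.83 to 1.52 over the plate comparisons. They share the GMNN reading, and the first also held for medians, at -0.64, and the second at -0.87. The gap between CDK2 and Cdt1 was -2.91 ± 1.40 (67 cells) and -2.83 ± 1.51 (65 cells), with overlapping plates.

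Ccne1 shared cells with the other genes too rarely for firm gaps. The gap of Ccne1 to Cdt1 was -1.09 ± 1.37 cycles (SD, 19 cells) at 2 weeks and -0.24 ± 1.71 cycles (13 cells) at 5 weeks, a difference of 0.85 with plates apart that rests on 5 to 12 cells a plate. At Ct 18 it was 0.44 with overlapping plates. Its gaps to CDK2 and to GMNN differed between the times by -0.06 and 0.02, with overlapping plates. With 1 plate left out they ran from -0.35 (without 5-week plate 1) to 0.37 (without 5-week plate 2) for CDK2, and from -0.47 (without 5-week plate 2) to 0.42 (without 5-week plate 1) for GMNN, with the remaining plates apart in opposite directions.

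Counted per cell, HSCs ranged from none of the 4 genes to all of them. Of the 357 cells 60 (16.8%) had 0 of the 4, 32.5% had 1, 28.6% had 2, 55 (15.4%) had 3 and 24 (6.72%) had all 4. The number of cells with all 4 was close on the plates, with 6 and 7 at 2 weeks and 5 and 6 at 5 weeks. Cells with 0 of the 4 numbered 19 and 20 on the 2-week plates and 13 and 8 on the 5-week plates. The mean number was 1.58 at 2 weeks and 1.67 ± 1.06 (SD over cells) at 5 weeks, a difference far below the spread over cells.

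CDK2 alone was the most common state, with 62 cells, of which 24 were at 2 weeks and 38 at 5 weeks. CDK2 with Cdt1 followed with 57 cells, CDK2 with Cdt1 and GMNN with 48, and CDK2 with GMNN with 32. Cdt1 alone was found in 24 cells, GMNN alone in 22 and the licensing pair Cdt1 and GMNN without CDK2 or Ccne1 in 10. Ccne1 alone was found in 8 cells, 2 on each plate. Most Ccne1 was thus read in cells that also had other members: of 42 Ccne1-positive cells, 24 had all 4 genes.

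**Figure D4:**
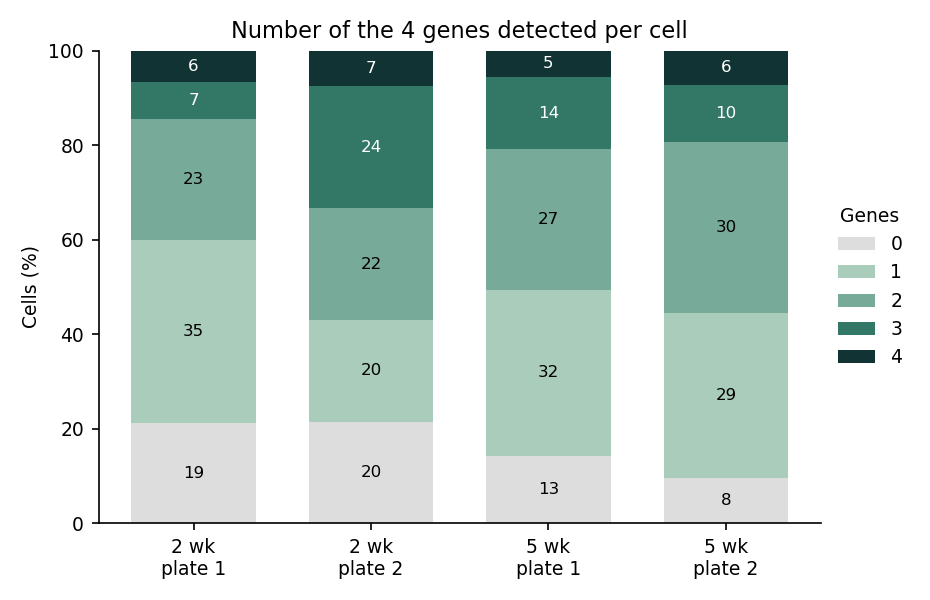
Percent of the cells of each plate in which 0, 1, 2, 3 or 4 of the genes were detected, with the number of cells written in each block. Cells with all 4 genes numbered 6, 7, 5 and 6, and cells with 0 numbered 19, 20, 13 and 8.

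On each plate a gene was detected in a larger share of the cells that had another of the 4 than of those that lacked it, by margins that differed between pairs and plates. Among cells with Ccne1, Cdt1 was detected in 62.5 to 85.7%, against 40.7 to 51.9% of cells without Ccne1 (ranges over the 4 plates). GMNN was detected in 54.5 to 77.8% of cells with Ccne1 and in 27.2 to 44.3% without it. With CDK2, Cdt1 was detected in 47.6 to 76.9% of cells, and without it in 15.4 to 45%. The gap for that pair ran from 2.62 points on 5-week plate 2 to 45.2 points on 2-week plate 2. Ccne1 and CDK2 were the weakest pair: CDK2 was detected in 57.1 to 81.8% of cells with Ccne1 and in 51.9 to 75% without it, with gaps of 1.45 to 14.8 points over the plates that rest on 8 to 14 Ccne1-positive cells each, and at Ct 18 the lowest plate gap was 0. These are counts over cells, which share a plate and differ in template.

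Cdt1 and its inhibitor GMNN were detected together in 86 cells. GMNN was detected in 40 to 66% of cells with Cdt1 and in 25 to 32.7% of cells without it, a mean gap of 20.1 points over the plates. When only products at Ct 18 or earlier counted, the mean gap was 65.3 points. The size of the link thus turned on the late Cdt1 products.

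Splitting Cdt1 by its Ct shows where the link lay. Of the 51 cells with Cdt1 at Ct 18 or earlier, 47 (92.2%) had GMNN, 47 had CDK2 and 22 (43.1%) had Ccne1. Of the 63 cells with Cdt1 between Ct 18 and 20, 26 (41.3%) had GMNN and 8 had Ccne1. Of the 57 cells with Cdt1 after Ct 20, 13 (22.8%) had GMNN and 2 had Ccne1, against 54 (29%) and 10 of the 186 cells without Cdt1. Cells with Cdt1 at Ct 18 or earlier had GMNN in 85.7 to 100% on the 4 plates, above every other class. Cdt1 after Ct 20 against no Cdt1 went both ways by plate, with GMNN in 16.7 and 26%, 42.1 and 25%, 20 and 32.7%, and 0 and 31.8% of cells. The mean reference Ct was 12.7, 13.1, 13.3 and 13.4 in these classes in order, so template moved with them.

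The same pattern read from GMNN picked out a small set of cells. A GMNN product before Ct 15, a limit chosen after the values were seen, was found in 47 cells, 7 and 22 on the 2-week plates and 8 and 10 on the 5-week plates. Of these, 43 (91.5%) had Cdt1, with a median Cdt1 Ct of 16.8, 40 (85.1%) had CDK2 and 22 (46.8%) had Ccne1. Among the 93 cells with a later GMNN product the shares were 46.2% for Cdt1, 68.8% for CDK2 and 6.45% for Ccne1. Among the 217 cells without GMNN they were 39.2, 57.1 and 6.45%. The equal pooled shares of Ccne1 did not hold plate by plate: with later GMNN against none it was found in 4.55 and 3.28% of cells, 17.4 and 8.33%, 3.57 and 5.45%, and 0 and 9.43%. Of all 42 Ccne1-positive cells, 22 were in the early GMNN set.

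The early GMNN set is a range of Ct and not a cell type, and 55 cells lay between Ct 14 and 16. Before Ct 14 there were 30 cells, of which 63.3% had Ccne1, 93.3% CDK2 and 100% Cdt1, and before Ct 16 there were 85 cells with 30.6, 77.6 and 69.4%. The shares with Ccne1 and Cdt1 were thus higher the earlier the limit was set. The mean reference Ct was 12.7 in the early set, 13.2 with later GMNN and 13.3 without GMNN, and 57.7, 55.8 and 54.1 other assays were detected, so template moved with the set and its part was not tested. The set made up 7.78 and 23.7% of the 2-week plates and 8.79 and 12% of the 5-week plates, which overlap. By plate, in the same order, Cdt1 was found in 6 of 7, 21 of 22, 7 of 8 and 9 of 10 cells of the set, and Ccne1 in 6 of 7, 6 of 22, 4 of 8 and 6 of 10. Ccne1 was thus least frequent in the set on 2-week plate 2, where the set was largest.

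**Figure D5:**
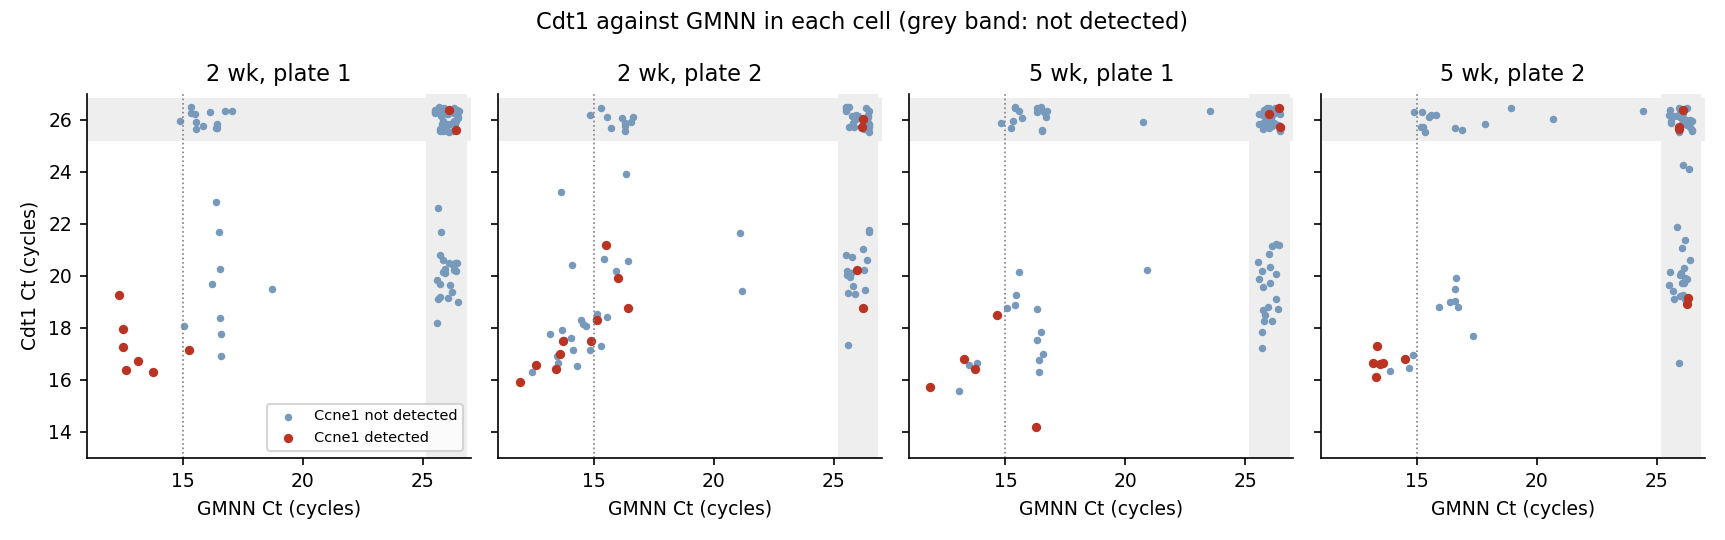
Ct of Cdt1 against Ct of GMNN in every cell, 1 panel a plate, with undetected reactions in the grey bands at the edge, the Ct 15 line dotted and cells with Ccne1 in red. Of the 47 cells left of the line on the 4 plates, 43 had a Cdt1 product and 22 had Ccne1.

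Across the cells of a plate the 4 genes rose and fell together, with undetected reactions set to Ct 25. The highest rank correlations were between Cdt1 and GMNN (Spearman's rho 0.29 to 0.65 and Pearson's r 0.31 to 0.56 over the plates, 83 to 93 cells each) and between CDK2 and Cdt1 (rho 0.24 to 0.59, r 0.16 to 0.52). CDK2 and GMNN gave rho 0.18 to 0.47, Ccne1 and GMNN 0.25 to 0.46, Ccne1 and Cdt1 0.23 to 0.38, and Ccne1 and CDK2 0.13 to 0.26. The transcripts of cyclin E1 and of the kinase it activates thus had the weakest relation of the 6 pairs by their mean over the plates, 0.18. Ccne1 was detected in only 8 to 14 cells a plate, so most of its values were ties at Ct 25. In cells with both products the rho of this pair ran from -0.83 to 0.83 over the plates, with 6 to 9 such cells each. All points of a plate share its chip and vary in template, and given the mean reference Ct the mean rho of the 6 pairs lay between 0.11 and 0.31.

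The early GMNN set holds 22 of the 42 Ccne1-positive cells, so leaving it out takes away over 50% of the Ccne1 detections and is a description of where they lay, not a separate result. Without these 47 cells the mean rho was -0.03 for Ccne1 and CDK2, 0.07 for Ccne1 and Cdt1 and 0.01 for Ccne1 and GMNN, from 0.18, 0.32 and 0.31. For CDK2 and Cdt1 it was 0.28, from 0.41, for CDK2 and GMNN 0.16, from 0.35, and for Cdt1 and GMNN 0.13, from 0.41. Leaving these cells out also narrows the range of GMNN itself, which bears on its own pairs. Outside the set the kinase and the licensing factor kept the highest of the 6 values.

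The assays most like each member were sought among the 81 with a product in 10% or more of the cells of each plate, by the lowest rho over the plates. Ccne1, at 8.79% on 1 plate, was not among the 81, and its own nearest assays were GMNN, Cdt1 and the glycolytic gene Gapdh (0.21 to 0.33). CDK2 was nearest to CDK4, the kinase of the D cyclins (0.34 to 0.48), Trp53, which encodes p53 (0.31 to 0.56), and Gapdh (0.28 to 0.47). Cdt1 was nearest to Rbl1, which encodes the pocket protein p107 (0.37 to 0.61), then Trp53 (0.36 to 0.51) and CDK4 (0.35 to 0.69). GMNN was nearest to CDK4 (0.38 to 0.58), Gapdh (0.33 to 0.52) and Fli1, an ETS family transcription factor (0.30 to 0.40). CDK4, Trp53 and Gapdh are reference assays, so they carry the template of the cell. Given the mean reference Ct the rho of Cdt1 and Rbl1 was 0.31 to 0.49. On the same terms the rho with CDK4 was 0.18 to 0.30 for CDK2, 0.18 to 0.53 for Cdt1 and 0.28 to 0.39 for GMNN. With Trp53 it was 0.08 to 0.39 for CDK2 and 0.07 to 0.27 for Cdt1. With Gapdh it was 0.08 to 0.28 for Ccne1, 0.07 to 0.24 for CDK2 and 0.20 to 0.28 for GMNN.

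The most negative relations were weak. They were with Nkx2.3 for Ccne1 (-0.18 to -0.05), with mettl7a1 for CDK2 (-0.28 to -0.07) and Cdt1 (-0.34 to -0.09), and with Hlf, a transcription factor of HSCs, for GMNN (-0.21 to -0.09). Detection shares over the 4 plates were also compared, after each assay's mean was subtracted. Only assays with a product in 10 to 90% of the cells of each plate were searched, and the 4 genes themselves were left out. The nearest of these assays was Rbl1 for Ccne1 and for Cdt1, vwf for CDK2 and Flt3 for GMNN. Rbl1 was detected in 65.6 and 74.2% of cells at 2 weeks and 67 and 71.1% at 5 weeks, and vwf, which encodes von Willebrand factor, in 34.4 and 34.4% and in 50.5 and 51.8%. With 4 plates such a likeness describes the plates only.

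The neighbours of the 4 genes on the path from G1 to S were counted from lists of known genes. Of 7 kinases and cyclins of G1, 5 were on the panel. Ccnd1 (43.7% of cells at 2 weeks and 63.2% at 5 weeks) and Ccnd3 (90.2 and 98.3%) rose in share with plates apart, 0 fell and 3 were not apart. Of these 3, Ccnd2 and CDK4 had a product in 100% of cells on each plate, where no share difference can show. In level, Ccnd2 (-0.39) and CDK4 (-0.69), themselves reference assays, were lower with plates apart. Ccnd1 (0.21) and Ccnd3 (0.17) were higher with plates apart, and CDK6 (0.53) overlapped. Ccnd1 and Ccnd3 encode D cyclins, which act before cyclin E, and Ccnd1 gained 19.5 points, but 63.7% of its products came after Ct 18, against 2.63% for CDK2. The pocket proteins that hold E2F factors back were measured by 3 of 7 listed genes, Rb1, Rbl1 and Rbl2, and the plates of all 3 overlapped in share. Their levels had plates apart, lower at 5 weeks for Rb1 (-0.28) and Rbl1 (-0.40) and higher for Rbl2 (0.09). Of 7 inhibitors of the G1 kinases 6 were measured: 3 rose with plates apart, 1 fell and 2 overlapped. These counts of shares stand beside 42.7% of all assays higher and 7.29% lower. For levels, 30.0% of the 80 assays were higher and 43.8% lower with plates apart.

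The inhibitors bear most directly on CDK2, since the products of Cdkn1a, Cdkn1b and Cdkn1c bind cyclin E and CDK2. Cdkn1b (p27) went from 50.8 to 88.5% of cells between the times and Cdkn1c (p57) from 50.3 to 58%, while Cdkn1a (p21) went from 12 to 2.87%. Cdkn2d, whose product acts on the kinases of the D cyclins, went from 68.9 to 74.1%. CDK2 and 2 of its 3 measured inhibitors thus had higher shares with plates apart at 5 weeks, as had 42.7% of all assays. In detecting cells the levels of Cdkn1c (-0.56) and Cdkn2d (-0.29) were lower with plates apart, as were those of 43.8% of the 80 assays. The level of Cdkn1b (0.07) overlapped, and Cdkn1a was read in too few cells for one. Of 14 listed licensing and origin-firing genes beyond Cdt1 and GMNN, and of 8 listed genes of S to M phase, 0 were among the assays, so no readout of ongoing DNA synthesis or mitosis stood beside the 4 genes.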

How the data were processed

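Per the labels' protocols, sorted cells were lysed singly in wells, and after reverse transcription the cDNA was pre-amplified for 22 cycles with 96 assays in multiplex, treated with exonuclease I, diluted 5-fold and read by EvaGreen quantitative PCR for 30 cycles on a microfluidic chip. The authors deposited non-normalized threshold cycles (Ct), with 999 for no product. The software and the threshold behind them were not given in the sources used here. Wells without a cell were not analysed here.

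Detection was Ct 25 or earlier. Wells with under 20% of assays were to be dropped, and 0 were. Levels were centred on the 14 assays with a product in 95% or more of the cells of each plate (the housekeeping genes Actb and Gapdh, the cell cycle genes Ccnd2, CDK4 and Trp53, and Zfpm1, Nfe2, Meis1, Lmo2, Ldb1, Kit, Hlf, Gata2 and Etv6), and compared only within an assay, since primer efficiencies are unknown. Share differences carry Newcombe intervals, and correlations were computed per plate. Named genes were the members, the pathway-list genes with plates apart, the markers of the sort and of other cell types that the check of the cells rests on, and for each member the 3 assays with the highest rho on its weakest plate, the 1 most negative and the nearest plate patterns, of which the first is given; 1 gene it took is left out here. The members and lists were chosen with earlier results of these data known. Alternatives covered the Ct limit, wells, centring, covariates, averages, coefficients and each plate left out. The steps were tested on simulated data. Promoters came from RefSeq (GRCm38.p6). Python 3.11.15, pandas 2.3.3, numpy 2.4.6, scipy 1.17.1, statsmodels 0.14.6 and matplotlib 3.10.9 were used.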

Additional observations from a re-analysis of the deposited data

How the results depend on the processing

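No paired analysis was possible because the cells and plates carry no number that links a 2-week cell or plate to a 5-week one. The precision of a share is set by 83 to 93 cells a plate, and each chase time is 1 sample. Of the 48 alternative values for differences in share, 44 lay within the interval of the value reported. The 4 others were the reference Ct as a covariate for CDK2 (7.63 points), Cdt1 (-20.5) and GMNN (-13.8), and the number of other assays for GMNN (-12.6). With each plate left out the differences were 16.8 to 21.3 for CDK2, -4.13 to 0.92 for Ccne1, -12.2 to 0.38 for Cdt1 and -10.5 to 5.71 for GMNN. Without outer wells that of CDK2 was 25.4. Assays with lower shares and plates apart numbered 13 to 17 with a plate left out, against 7, where 1 plate faces 2; those with higher shares stayed within 1.5 times of 41.

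The level differences moved with the centring. For CDK2 they were 0.22 without centring, 0.16 with Actb and Gapdh, 0.013 on the plate median's scale, 0.072 by medians and 1.33 over all cells with undetected reactions at the limit. For Cdt1 they were 0.40 without centring, 0.23 with Actb and Gapdh and -0.66 over all cells. For GMNN they were -0.73 without centring, -0.76 with Actb and Gapdh, -0.92 at Ct 18, -0.93 at Ct 23 and -0.76 by medians, with plates apart each time. With each plate left out they were -0.35 to -0.07, -0.34 to 0.10 and -1.30 to -0.99 for CDK2, Cdt1 and GMNN.

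For the within-cell gaps, the change from 2 to 5 weeks is given. That of Ccne1 to Cdt1 was 0.44 at Ct 18 and 1.24 by medians, and that of CDK2 to GMNN -0.88 and -0.64. For Cdt1 to GMNN it was -0.87 by medians. The change for CDK2 to Cdt1 had plates apart at Ct 18 (0.21). With each plate left out the change for Ccne1 to CDK2 was -0.35 to 0.37 and that of Ccne1 to Cdt1 0.68 to 1.11. At Ct 18 the co-detection gaps were 12.7 points for Ccne1 then CDK2, 43.9 for Ccne1 then Cdt1 and 65.3 for Cdt1 then GMNN.

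The mean rho of Ccne1 and CDK2 was 0.12 by Pearson, 0.063 with Ct centred on the reference Ct and 0.11 given the reference Ct. That of Ccne1 and Cdt1 was 0.19 when centred and 0.43 at Ct 18. In cells with both products the mean rho was 0.59 for CDK2 and GMNN (17 to 31 cells a plate). For Ccne1 and GMNN it was -0.0017, over 3 plates of only 6 to 10 such cells, with plate values from -0.57 to 0.71. Leaving out cells with GMNN before Ct 15, the other limits for that set and the number of other assays as a partial term were chosen after seeing the data. Without those cells the mean rho was -0.029 for Ccne1 and CDK2, 0.071 for Ccne1 and Cdt1, 0.0073 for Ccne1 and GMNN, 0.16 for CDK2 and GMNN and 0.13 for Cdt1 and GMNN. The cause of these shifts was not tested.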
